A study of Mus musculus with 2 samples.

Results

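The 10 genes described here, Nnat, Peg3, Zim1, Ndn, Magel2, Snrpn, H19, Igf2, Cdkn1c and Plagl1, are imprinted genes that lie outside the Dlk1-Dio3 cluster. They were chosen by symbol, with their counts in these libraries already known, and all 10 have a row among the 18510 genes of the deposited count table. The RNA was taken from neural stem cells of embryonic brain (CD-1 mice, embryonic day 12) after 5 days in proliferation medium. The tested cells were infected with a lentivirus carrying an H3.3 knockdown plasmid, and the control cells with a lentivirus carrying a control plasmid. With 1 library for each group, the differences have no replicate check, and p-values were not computed. CD-1 is an outbred stock, the knockdown sequence is not given in the sources used here, and the counts do not separate the parental alleles.

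Imprinted genes are expressed mainly or only from the allele of 1 parent. The parental alleles differ in DNA methylation laid down in the egg or the sperm at an imprinting control region. Many imprinted genes lie in clusters in which paternally and maternally expressed genes share a control region or enhancers. In the embryo they act on growth, and in the brain several are abundant in neurons. Of the 10 genes, Nnat, Peg3, Ndn, Magel2, Snrpn, Igf2 and Plagl1 are expressed from the paternal allele in the mouse, and Zim1, H19 and Cdkn1c from the maternal allele. H3.3 is a histone H3 variant whose deposition does not need DNA replication, and H3f3a and H3f3b both encode it.

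The knockdown library held 8702855 counts and the control library 9184779. Levels are given in CPM, the count scaled to the total of its library. Intervals are 95% exact intervals of the counts, which cover counting error only and leave out the spread between cultures. A gene is said to rise or fall where its mean was at least 1 CPM, its ratio of knockdown over control at least 2-fold in either direction with 0.5 count added to each library, and its interval excluded 1. This minimum was reached by 13989 genes, here called tested, of which 535 rose (3.82%) and 355 fell (2.54%), around a median log2 ratio of -0.03. H3f3b had 447 CPM in the knockdown library and 821 CPM in the control library, and H3f3a had 135 and 209 CPM, so that both had lower levels in the library labelled knockdown and neither met the 2-fold rule.

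All 10 imprinted genes were tested. Nnat, Zim1, Magel2 and Igf2 rose and H19 fell, against 3.82% of all tested genes that rose, 2.54% that fell and 6.36% in either direction. Since the genes were picked from this same contrast, these counts describe them and carry no further weight. Of the other 5, Ndn and Snrpn had intervals above 1 and Plagl1 and Cdkn1c below 1, all short of 2-fold, whereas the interval of Peg3 included 1. In all, 9 of 10 intervals excluded 1, as did 49.9% of all tested genes. The median log2 ratio of the 10 genes was 0.51, between -1.13 for H19 and 1.24 for Zim1.

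**Figure D1:**
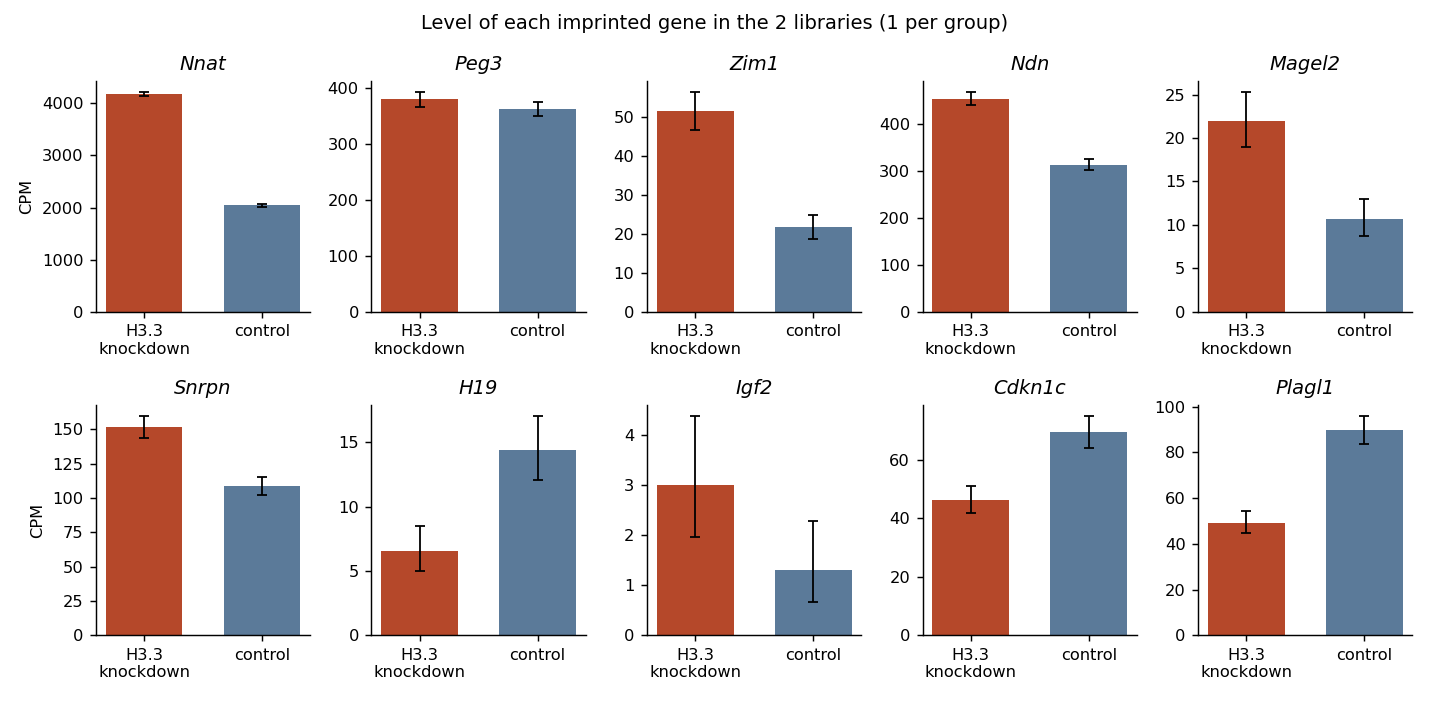
Level of each gene in CPM (bars, linear axes from 0, a separate scale for each gene) in the H3.3 knockdown library (left) and the control library (right), with 95% exact counting intervals. Nnat reaches 4175 CPM in the knockdown library against 2044 CPM in the control library, while Igf2 stays at 2.99 and 1.31 CPM.

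As RPKM, the CPM divided by exonic length in kilobases, the 10 genes spanned more than 3 orders of magnitude. Nnat was the highest in each library, with 2283 RPKM in the knockdown library and 1117 RPKM in the control library. Ndn followed with 123 and 84.7 RPKM, and Snrpn with 70.2 and 50.3 RPKM. Peg3 stood above Cdkn1c in the knockdown library, at 28.5 and 22.7 RPKM, whereas in the control library Cdkn1c stood above Peg3, at 34.0 and 27.2 RPKM. Igf2 was the lowest, at 0.522 RPKM in the knockdown library and 0.228 RPKM in the control library. Neighbours in this order had intervals that overlapped only for Zim1 and Plagl1 in the knockdown library, at 6.35 and 6.30 RPKM, and for Zim1 and Magel2 in the control library, at 2.68 and 2.30 RPKM. Exonic length is the union over annotated transcripts, so genes with long minor isoforms come out low.

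**Figure D2:**
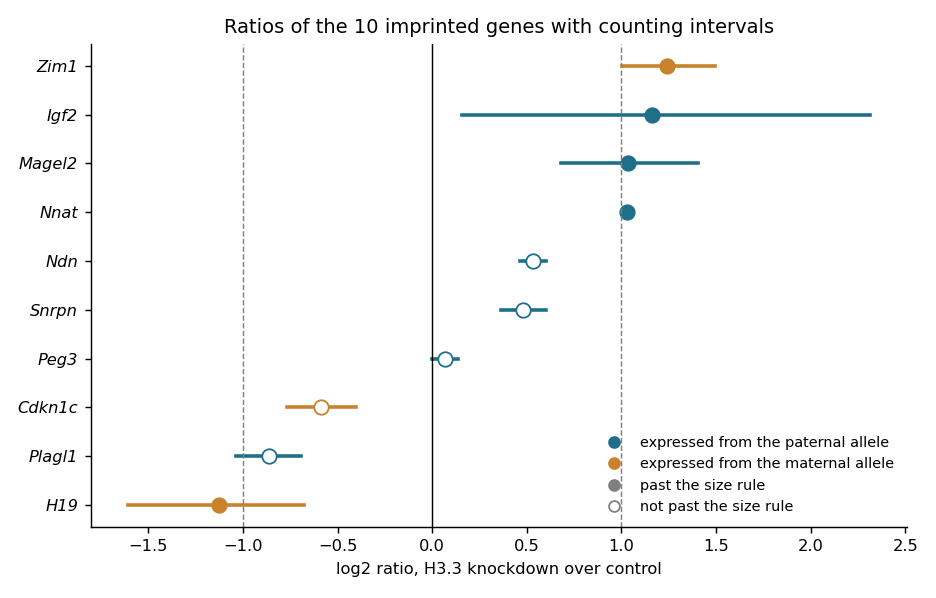
Log2 ratio of H3.3 knockdown over control for each gene (points), with 95% counting intervals (lines), coloured by the allele the gene is expressed from. Filled points met the size rule, and dashed lines mark 2-fold. Zim1, Igf2, Magel2 and Nnat lie beyond the upper dashed line and H19 beyond the lower.

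Nnat encodes neuronatin, a small membrane protein of the endoplasmic reticulum that is abundant in developing neurons. It lies on chromosome 2 from 157560078 to 157562522 on the plus strand, in an intron of Blcap, which is transcribed from the other strand. It had 36338 counts in the knockdown library and 18772 in the control library, or 4175 and 2044 CPM. The ratio was 2.04 (interval 2.01 to 2.08), which is just past the 2-fold rule. By level Nnat was the 5th gene of the knockdown library and the 15th of the control library. Only 7 genes, Nnat included, had a mean at least as high, and Nnat was the only one of them that rose. The next largest log2 ratio among the 7 was 0.30, of mt-Cytb. Nnat alone took 78.2% of the summed level of the 10 genes in the knockdown library and 67.3% in the control library. Without it, the other 9 genes summed to 1163 CPM in the knockdown library and 991 CPM in the control library. The host gene Blcap had 1496 and 947 counts, a ratio of 1.67 (1.54 to 1.81), and the ratio of Nnat to Blcap was 24.3 in the knockdown library and 19.8 in the control library. That is a relative change of 1.23 (1.13 to 1.33), which does not depend on the scaling of the libraries. Nnat and Blcap share no exonic base in the GENCODE vM21 annotation.

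Markers of neurons and of neural stem cells also differed between the libraries, and in a bulk library more cells of a type cannot be told apart from more RNA per cell. Of 8 neuron markers Gap43 and Snap25 rose and none fell, against 3.82% and 2.54% of all tested genes. Log2 ratios above 0 were found for 6 of the 8, against 47.1% of all tested genes, and their summed level was 7067 CPM in the knockdown library and 5217 CPM in the control library. Gap43, a growth cone protein, had 825 and 335 CPM, and Snap25, which acts in vesicle fusion, had 190 and 77.6 CPM. Tubb3 was nearly level at 979 and 1024 CPM, and Syt1 was lower at 120 and 205 CPM. Neural stem cell markers were present in both libraries, with Nes at 462 and 544 CPM and Sox2 at 439 and 522 CPM. Among 8 such markers Sox1 fell, with 111 and 241 CPM, and none rose, against the same 2.54% and 3.82% of all tested genes. Log2 ratios lay below 0 for 6 of the 8, while 47.1% of all tested genes lay above 0. Intervals lay below 1 for 5 of the 8, against 27.0% of all tested genes, and above 1 for 1. The median log2 ratio of the 8 was -0.24. Pax6 had 54.2 and 101 CPM (0.536, 0.478 to 0.599) and Hes5 had 53.2 and 76.3 CPM (0.697, 0.619 to 0.785). The summed levels of 4739 and 4751 CPM rest mostly on Vim, with 1403 and 1408 CPM, and Fabp7, with 1385 and 1044 CPM. The part of these markers in the ratios of the imprinted genes was not tested.

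**Figure D3:**
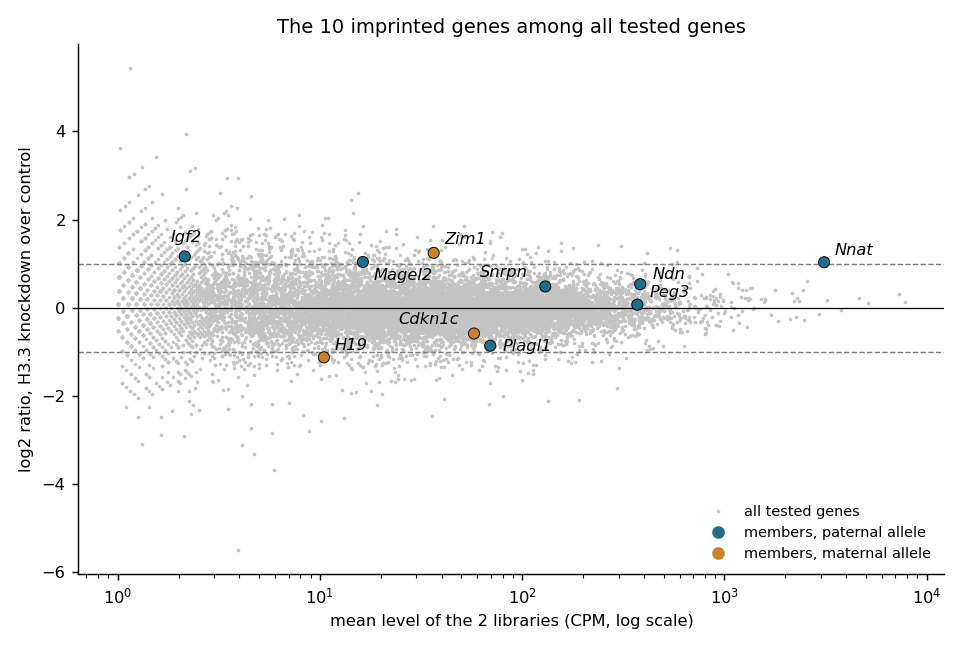
Log2 ratio of H3.3 knockdown over control against the mean level of the 2 libraries in CPM (log axis), for all 13989 tested genes (grey) and the 10 imprinted genes (coloured by expressed allele). Dashed lines mark 2-fold. Nnat lies at the far right above the upper line, where few genes depart from 0, and Igf2 lies at the far left, where the scatter is wide.

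Ndn, Magel2 and Snrpn belong to the paternally expressed domain of chromosome 7 that corresponds to the human Prader-Willi region. Ndn and Magel2 encode members of the MAGE family, of which necdin restrains proliferation and supports neuronal survival, and Magel2 takes part in a ubiquitin ligase complex of endosomes. Snrpn encodes SmN, a spliceosomal Sm protein of the brain. Ndn (chromosome 7 from 62348277 to 62349928) had 3944 counts in the knockdown library and 2875 in the control library, or 453 and 313 CPM, a ratio of 1.45 (1.38 to 1.52). Magel2 (chromosome 7 from 62376979 to 62381640) had 191 and 98 counts, or 21.9 and 10.7 CPM. Its ratio was 2.06 (1.60 to 2.65), so that the gene rose, while its interval reaches well under 2-fold. Snrpn (chromosome 7 from 59982495 to 60140219) had 1319 and 997 counts, or 152 and 109 CPM, a ratio of 1.40 (1.285 to 1.52).

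The genes of this domain did not move by the same factor. The ratio of Magel2 to Ndn changed by 1.42 (1.10 to 1.84) between the knockdown and the control library, whereas that of Snrpn to Ndn changed by 0.964 (0.876 to 1.06). Mkrn3, which encodes a zinc finger protein and starts near Magel2, had 202 and 175 counts, a ratio of 1.22 whose interval includes 1. Peg12, at the end of the same group, had 189 and 266 counts (0.750, 0.619 to 0.907). Snhg14, the long transcript that runs antisense to Ube3a, had 776 and 718 counts (1.14, 1.03 to 1.26). Ube3a, a ubiquitin ligase that is silenced on the paternal allele in neurons, had 1601 and 1646 counts (1.03, 0.958 to 1.10). Relative to Snrpn, Ube3a was at 0.735 (0.659 to 0.820) in the knockdown library. Sm proteins of other genes did not show the higher level of Snrpn. None of the 7 rose or fell, nor did Snrpn, against 6.36% of all tested genes in either direction. Log2 ratios were below 0 for 6 of the 7, and above 0 for 47.1% of all tested genes. Of these 7, Snrpb, the paralog of Snrpn, had 118 and 145 CPM. Snrpd2, the next most abundant of them, had 80.4 and 91.7 CPM. Of 9 genes of MAGE proteins and their partners none rose or fell, against the same 6.36%. The most abundant, Maged1, had 960 and 1039 CPM, and Usp7 had 175 and 213 CPM. In GENCODE vM21, 27.3% of the exonic bases of Snrpn are shared with Gm38393, which has its own row with 195 and 231 counts (0.891, 0.732 to 1.08). Snurf, on the same strand and with no row, shares 10% of the exonic bases of Snrpn. Reads of these genes are therefore uncertain.

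RefSeq promoter windows (GRCm38.p6) were found for 8 of the 10 genes and were read over the 250 bases before each start. The motif CGCATGCG, a palindrome at the core of the site known for the transcription factor NRF1, was searched after the windows had been read. It was found in Nnat, Ndn and Snrpn, the 3 genes of the 10 with the highest RPKM in each library. H19 and Cdkn1c have no window, and a link between the motif and the level was not tested. The motif occurs in 1.75% of 27025 genes with a window. In Snrpn, 3 of 4 windows hold it, and these windows resemble each other around it, with 53.7% to 76.4% of aligned bases identical. The Snrpn window without it (chr7:60005200-60005449, minus strand) belongs to the most downstream of the 4 starts and is not shown. Which of the 4 starts gave the counted RNA of Snrpn was not determined. The match is a description of these letters and says nothing of binding. The windows of Nnat (chr2:157559828-157560077, plus strand), Ndn (chr7:62348027-62348276, plus strand) and Snrpn (chr7:60140226-60140475, minus strand) are shown with the motif in capitals.
Nnat: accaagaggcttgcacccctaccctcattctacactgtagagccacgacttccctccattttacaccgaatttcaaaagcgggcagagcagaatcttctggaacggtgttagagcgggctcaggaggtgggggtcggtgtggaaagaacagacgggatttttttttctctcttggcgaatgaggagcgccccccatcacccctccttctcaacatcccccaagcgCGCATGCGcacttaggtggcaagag
Ndn: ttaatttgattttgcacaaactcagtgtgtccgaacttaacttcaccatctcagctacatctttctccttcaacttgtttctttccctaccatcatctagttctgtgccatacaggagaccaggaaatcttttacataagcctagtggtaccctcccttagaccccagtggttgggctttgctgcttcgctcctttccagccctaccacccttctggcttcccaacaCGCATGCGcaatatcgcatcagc
Snrpn: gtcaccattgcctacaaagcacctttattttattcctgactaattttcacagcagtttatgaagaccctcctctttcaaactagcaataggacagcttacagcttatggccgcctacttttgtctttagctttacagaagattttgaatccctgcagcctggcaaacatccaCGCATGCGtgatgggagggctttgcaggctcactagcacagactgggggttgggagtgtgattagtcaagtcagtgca
The motif begins 25 bases before the start of Nnat, 23 bases before that of Ndn and 78 bases before the Snrpn start whose window is shown.

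Peg3 and Zim1 are neighbours in another imprinted cluster of chromosome 7 and are expressed from opposite alleles. Both encode zinc finger proteins, and Peg3, which binds DNA, is known for effects on growth and maternal behaviour. Peg3 (chromosome 7 from 6703892 to 6730421, minus strand) had 3305 counts in the knockdown library and 3327 in the control library, or 380 and 362 CPM. Its ratio of 1.05 (0.999 to 1.10) was the closest to 1 of the 10 genes. Zim1 (chromosome 7 from 6671456 to 6696450, minus strand) had 447 and 199 counts, or 51.4 and 21.7 CPM. Its ratio of 2.37 (2.00 to 2.82) was the highest of the 10, and Zim1 ranked 338th of the 13989 tested genes by log2 ratio. There were 0.135 counts of Zim1 for each count of Peg3 in the knockdown library and 0.0598 in the control library, a relative change of 2.26 (1.90 to 2.70). Usp29, a paternally expressed ubiquitin protease gene that starts head to head with Peg3, had 337 and 256 counts (1.39, 1.18 to 1.64), which relative to Peg3 is 1.33 (1.11 to 1.58).

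The window before Peg3 (chr7:6730420-6730669, minus strand) was the only one of the 8 genes with the motif GGGGCCCC, a palindrome known as a binding sequence of the zinc finger protein Plagl1. It is shown in capitals and begins 201 bases before the start. The motif is found in 1.03% of the 27025 genes.
Peg3: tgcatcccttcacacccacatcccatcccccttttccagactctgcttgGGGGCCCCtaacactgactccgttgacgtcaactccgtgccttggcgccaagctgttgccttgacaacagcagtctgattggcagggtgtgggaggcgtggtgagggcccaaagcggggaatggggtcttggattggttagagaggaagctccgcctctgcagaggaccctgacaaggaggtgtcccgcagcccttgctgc
The motif TATAAA, on either strand, was found in the window of Magel2 and in 1 of 4 windows of Snrpn, and in 14.3% of the 27025 genes. Observed over expected CpG, a measure of how far CpG has been lost, was at least 0.6 in Nnat (0.642), Zim1 (0.631), Plagl1 (0.618) and 2 of 4 windows of Igf2 (0.744 and 0.881). The median over all 32851 windows was 0.374, and 34.0% of them reached 0.6.

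H19 and Igf2 lie side by side on chromosome 7 and share enhancers, with H19 transcribed from the maternal and Igf2 from the paternal allele. H19 is a long non-coding RNA that is also the precursor of miR-675, and Igf2 encodes insulin-like growth factor 2, the main growth factor of the fetus. H19 (chromosome 7 from 142575529 to 142578143, minus strand) had 57 counts in the knockdown library and 132 in the control library, or 6.55 and 14.4 CPM. It fell, with a ratio of 0.456 (0.328 to 0.626). Igf2 (chromosome 7 from 142650766 to 142666816, minus strand) had 26 counts in the knockdown library and 12 in the control library, or 2.99 and 1.31 CPM, and rose 2.29-fold (1.11 to 4.97). The interval of Igf2 is the widest of the 10, and with 5 counts added to each library it no longer rose (log2 ratio 0.94). There were 2.19 counts of H19 for each count of Igf2 in the knockdown library and 11 in the control library, a relative change of 0.199 (0.0859 to 0.446) that is free of scaling. Of the exonic bases of Igf2, 62.8% are shared in vM21 with Gm49394, which has no row of its own in the table, and how reads of shared bases were counted is not stated.

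Genes of the insulin-like growth factor axis, listed apart from Igf2, went both ways. Of 17 tested, Igfbp3 and Igfbp7 rose and none fell, against 3.82% and 2.54% of all tested genes, and the median log2 ratio was 0.21. Igfbp5, a binding protein and the most abundant of the list by CPM, had the lowest ratio, with 2624 counts in the knockdown library and 5025 in the control library (0.551, 0.525 to 0.578). Igfbp3, the main carrier of these factors in blood, had 453 counts in the knockdown library and 201 in the control library (2.38-fold, 2.01 to 2.82). Igfbp7, a related binding protein, had 48 and 11 counts (4.61-fold, 2.36 to 9.83). Igf2r, an imprinted receptor that clears Igf2, had 1261 and 865 counts (1.54, 1.41 to 1.68). Relative to Igf2r, Igf2 was at 1.49 (0.719 to 3.25) in the knockdown library, an interval that includes 1. Grb10, an imprinted adaptor that restrains signalling by these receptors, had 222 and 285 CPM.

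Other cell types that the cultures could hold were looked up by their markers. The 10 markers of mesenchyme, pericytes and meninges summed to 60.7 CPM in the knockdown library and 72.0 CPM in the control library. Of the 6 that were tested, Col1a1, Col1a2 and Col3a1 rose and Pdgfrb and Prrx1 fell. These calls and those below stand beside 3.82% of all tested genes that rose and 2.54% that fell. Only 2 choroid plexus and 3 endothelium markers were tested. Of 6 choroid plexus markers, which summed to 25.5 and 29.6 CPM, Ttr rose with 38 and 4 counts, Otx2 had 157 and 256 counts, and Kcnj13 has no row. For endothelium the markers summed to 13.3 and 7.08 CPM, where Flt1 rose, with 20 counts in the knockdown library and 0 in the control library, and Cdh5 and Cldn5 have no row. Microglia markers summed to 5.63 and 3.16 CPM, with C1qa the only one of 3 tested that rose. Erythroid markers summed to 0.345 and 0.109 CPM. Of 6 astrocyte markers S100b fell, with 7 and 68 counts, and Gfap had 38.6 and 76.8 CPM (0.503, 0.440 to 0.574). Log2 ratios lay above 0 for 3 of the 6 and below 0 for 3, and the levels summed to 851 and 787 CPM. The part of all these markers in the ratios of H19, Igf2 and the other imprinted genes was not tested.

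Plagl1 and Cdkn1c, which both restrain proliferation, had lower levels in the knockdown library without reaching 2-fold. Plagl1, or Zac1, encodes a zinc finger protein that regulates other imprinted genes in the mouse, and Cdkn1c encodes the cyclin-dependent kinase inhibitor p57. Plagl1 (chromosome 10 from 13060504 to 13131694, plus strand) had 429 counts in the knockdown library and 824 in the control library, or 49.3 and 89.7 CPM, a ratio of 0.549 (0.488 to 0.618). It was the only paternally expressed gene of the 10 with a log2 ratio below 0. Cdkn1c (chromosome 7 from 143458350 to 143461050, minus strand) had 402 and 637 counts, or 46.2 and 69.4 CPM, a ratio of 0.666 (0.586 to 0.756). Among relatives of Plagl1, Plagl2 had 330 and 438 counts (0.795, 0.687 to 0.919) and Plag1 had 26 and 44 counts (0.624, 0.369 to 1.04). The ratio of Plagl1 to Plagl2 changed by 0.691 (0.572 to 0.835).

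Cdkn1c and its relative Cdkn1a differed in direction. Cdkn1a, which encodes p21, rose with 684 counts in the knockdown library and 325 in the control library (2.22-fold, 1.94 to 2.54), so the ratio of Cdkn1c to Cdkn1a was 0.588 and 1.96, a relative change of 0.300 (0.249 to 0.361). Among the list of 6 CIP and KIP inhibitors and partners, Cdkn1a was the only one that rose and none fell, against 3.82% and 2.54% of all tested genes. Cdkn1b, for p27, had 169 and 232 CPM. Kcnq1ot1, the paternally expressed non-coding RNA of the same cluster that silences Cdkn1c on the paternal allele, had 331 and 242 counts (1.44, 1.22 to 1.71). Relative to Cdkn1c it was at 2.17 (1.75 to 2.68) in the knockdown library. Phlda2, a placental growth regulator of the cluster, had 2 and 1 counts, and its ratio to Cdkn1c (interval 0.164 to 187) could not be resolved at this depth. In vM21, 30.7% of the exonic bases of Cdkn1c lie opposite the antisense gene Gm44732, which has no row, and whether counting used strand is not stated.

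Genes around the 10 were looked up by the positions of the deposited table. Outside the 10 themselves, 49 tested genes start within 500 kb of at least 1 of them. None rose (3.82% of all tested genes did) and 3 fell (6.12%, against 2.54%), with a median log2 ratio of 0.09. Those 3 were Rbl1 near Nnat, with 188 counts in the knockdown library and 399 in the control library, Lsp1 near H19 and Igf2, with 6 and 24 counts, and Zfp78 near Peg3 and Zim1, with 12 and 29 counts. Rbl1 encodes the pocket protein p107. No tested neighbour of Magel2 (3 tested), Snrpn (2), Cdkn1c (11) or Plagl1 (7) rose or fell, against 6.36% of all tested genes in either direction.

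**Figure D4:**
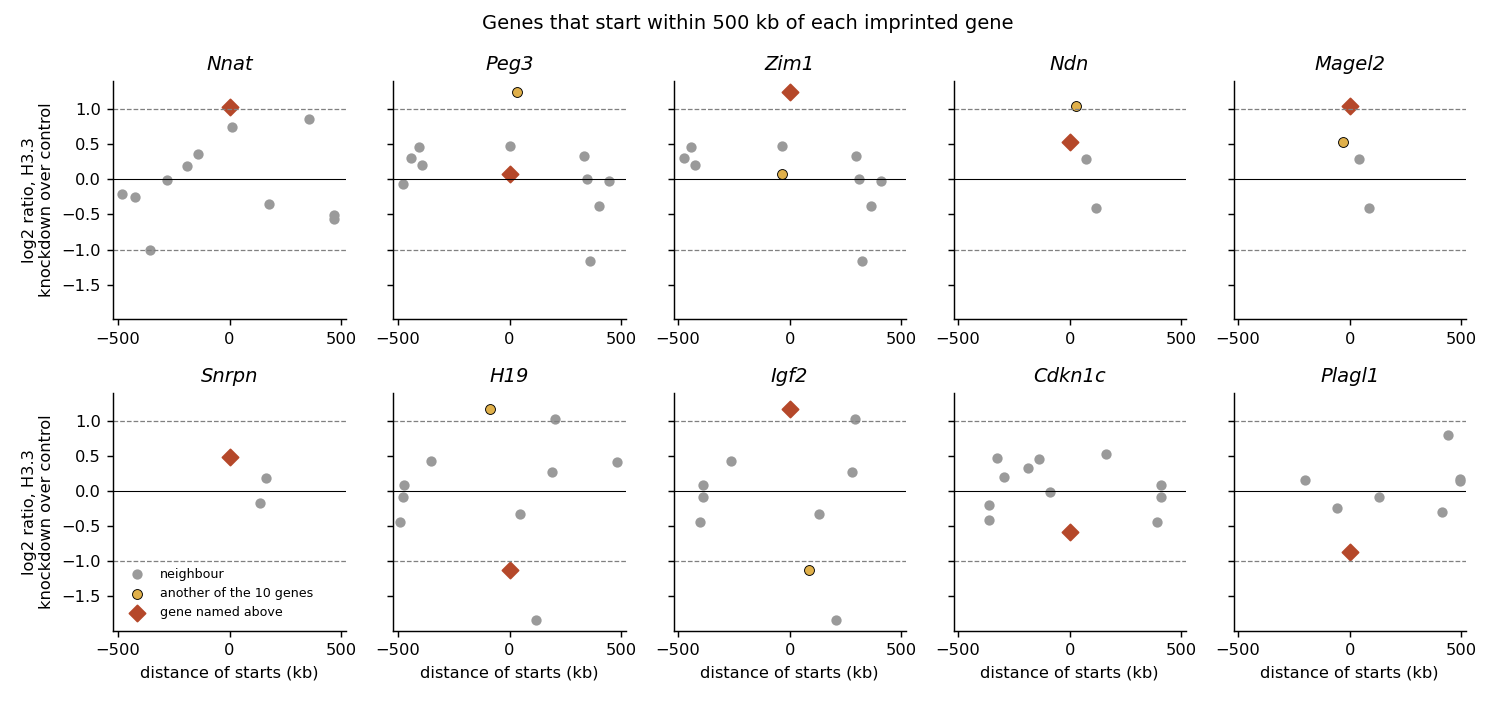
Log2 ratio of H3.3 knockdown over control of tested genes that start within 500 kb of each gene, against the distance between starts in kb (positive is downstream of the gene). Red diamonds are the gene named above each panel, grey points its neighbours and yellow points others of the 10 genes. Near Nnat, Blcap is the closest and has a log2 ratio of 0.74, and beside H19 the point of Igf2 lies at 1.16. Grey points past a dashed line without a call have intervals that include 1.

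A wider list of 64 imprinted genes, from which the 10 and the Dlk1-Dio3 cluster were left out, had few members past the rule. Of these, 50 have a row and 43 were tested. Whether each gene of the list is imprinted in these cells was not measured. Htr2a rose and Asb4 fell, which is 2.33% in each direction, against 3.82% and 2.54% of all tested genes. Htr2a, a serotonin receptor, had 43 counts in the knockdown library and 18 in the control library (2.52-fold, 1.42 to 4.64). Asb4, a substrate receptor of a ubiquitin ligase, had 122 and 264 counts (0.488, 0.390 to 0.607). The median log2 ratio of the 43 was 0.18, against -0.03 over all tested genes. Intervals above 1 were found for 17 of 43 and intervals below 1 for 7, against 22.9% and 27.0% of all tested genes.

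The genes were also sorted by the allele they are expressed from, a grouping made after the values were seen. The allele was assigned to each gene and not measured in these cells. For some sorted genes it can differ by tissue, as for Ube3a, sorted as maternal and silenced on the paternal allele in neurons. Of 17 tested paternally expressed genes of the wider list, 13 had log2 ratios above 0, as did 47.1% of all tested genes. Intervals lay above 1 for 10 of the 17 and below 1 for 1, against 22.9% and 27.0% of all tested genes. The median of the 17 was 0.36, and none met the 2-fold rule. The highest was Peg13, a non-coding RNA, with 286 CPM in the knockdown library and 156 CPM in the control library (1.83, 1.71 to 1.95). Zdbf2 had 151 and 96.1 CPM (1.57, 1.44 to 1.71), and Peg10, a gene derived from a retrotransposon, had 334 and 260 CPM (1.28, 1.22 to 1.36). Mest, a hydrolase gene, was nearly level at 168 and 175 CPM. Of 10 tested maternally expressed genes of the list, 6 had log2 ratios above 0, with a median of 0.05. Intervals lay above 1 for 1 of these 10 and below 1 for 2. Among the 10 genes chosen by symbol, 6 of 7 paternally and 1 of 3 maternally expressed genes lay above 0, with medians of 0.53 and -0.59. Whether the 2 kinds of genes differ was not tested, since the grouping followed the values and each group held 1 library.

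**Figure D5:**
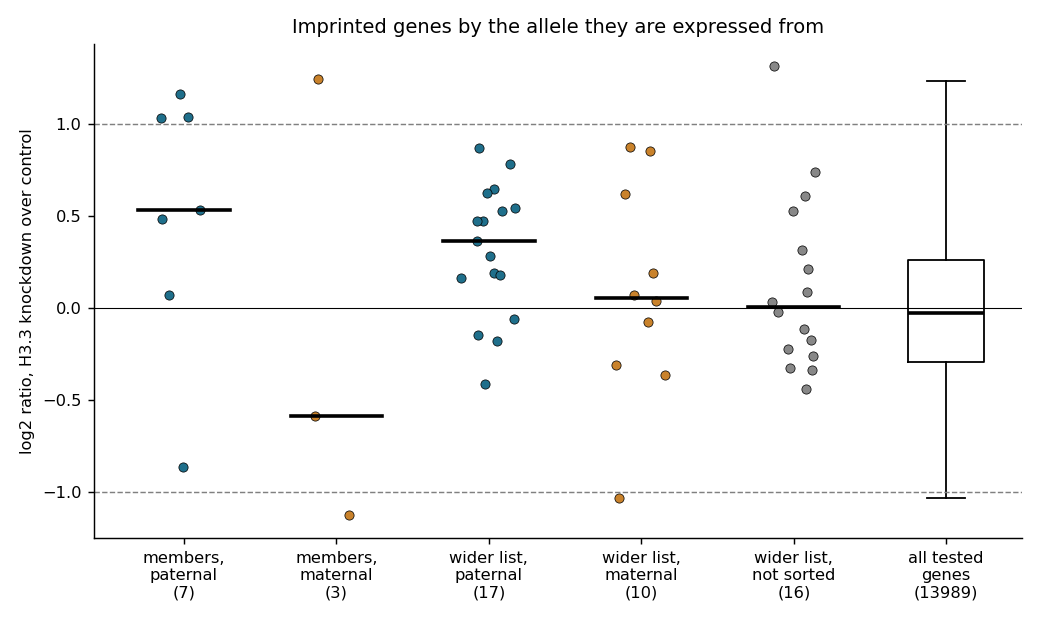
Log2 ratio of H3.3 knockdown over control for tested imprinted genes by the allele they are expressed from (points, with black bars at the medians and the number of genes in parentheses). Genes of the wider list to which no allele was assigned are not sorted. The sorted genes include some, such as Ube3a, whose allele can differ by tissue. The box shows all 13989 tested genes with its quartiles, median and whiskers that span the central 95%. The medians of the paternally expressed genes are 0.53 and 0.36.

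A further list held factors that set or keep the marks of imprinted regions. Dnmt1 and Uhrf1 fell among 23 tested and none rose, against 2.54% and 3.82% of all tested genes. The median log2 ratio was -0.19, and 6 of the 23 lay above 0, against 47.1% of all tested genes. Dnmt1, the methyltransferase that copies methylation at replication, had 1159 counts in the knockdown library and 2856 in the control library (0.428, 0.400 to 0.459). Uhrf1, which brings Dnmt1 to replicated DNA, had 458 and 1309 counts (0.369, 0.331 to 0.411). Zfp57, a zinc finger protein that binds methylated imprinting control regions, had 61.0 and 58.0 CPM (1.05, 0.931 to 1.19). Its partner Trim28 had 337 and 465 CPM (0.724, 0.690 to 0.759), and Ctcf, the insulator protein that binds between H19 and Igf2, had 135 and 189 CPM (0.715, 0.664 to 0.771). The part of these factors in the ratios of the 10 genes was not tested.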

How the data were processed

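Polyadenylated RNA was enriched with oligo(dT) from total RNA and reverse transcribed with random primers, per the labels' protocols. TopHat2 2.0.12, Bowtie 1.0.1 and HTSeq 0.6.0 are named in the submitters' processing notes, which state no settings, genome build or use of strand. The deposited table holds whole-number counts per Ensembl gene that the authors did not normalize, per the file headers, and 1 further line is not analysed here. The knockdown counts stand in a column named H3_3KD_2, which was matched by that name to the only sample titled as a knockdown, and every ratio rests on this match. Its CPM columns are the authors' counts divided by a constant, and the log2 column holds the authors' ratio of those. Neither was used for a result.

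Here counts were scaled to the column total. Symbols were found for 18423 IDs (99.5%), and 78.3% of positions equal those of GENCODE vM21 (GRCm38), which gave exonic lengths. Intervals of ratios are exact conditional (Clopper-Pearson) intervals, those of levels exact Poisson and those of ratios of ratios exact conditional ones of the 4 counts (Python 3.11.15, scipy 1.17.1). Reads were amplified by PCR with no molecular identifiers stated, so they are not independent molecules. The procedure was tested on simulated counts. The genes, lists, 13 pairs and named genes were chosen with earlier results of these data known. The genes named are the 10, those of the pairs, those of the lists past the rule or otherwise the most abundant, and neighbours past the rule. Zfp57, Trim28, Ctcf, Plag1, Cdkn1b, Grb10, Mkrn3, Peg12, Snhg14, Peg13, Zdbf2, Peg10, Mest, Igfbp5, Gm38393, mt-Cytb and markers not past the rule were named after their values were seen. Alternatives were TMM scaling (edgeR 4.0.16), size factors (DESeq2 1.42.0), totals without mitochondrial genes, other minimum levels, 5 added counts, a 1.5-fold threshold and a correction for length and GC content. Results of 1 list of cell type markers are not reported here.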

Additional observations from a re-analysis of the deposited data

How the results depend on the processing

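The 10 genes kept the direction of their log2 ratios under the 7 alternatives that change a ratio or a minimum, except Peg3, at 0.07 and at -0.02 after correction for transcript length and GC content. Nnat, Zim1, Magel2 and H19 met the rule in every one of these, with log2 ratios of 1.02 to 1.08 for Nnat and 1.01 to 1.06 for Magel2, both close to the threshold of 1. Igf2 did not meet it with 5 counts added (0.94) so that 3 of the 10 genes rose there, against 3.26% of all tested genes. At a minimum of 10 CPM Igf2 was not tested and 3 of 9 genes rose, against 1.64% of all tested genes. With a 1.5-fold threshold 3 of the 10 fell, Cdkn1c and Plagl1 beside H19, and 8 of the wider list rose, while 9.01% of all tested genes then rose and 8.20% fell. With the minimum of 10 CPM 0 of 35 tested genes of the wider list rose, against the same 1.64%. The median of all tested genes lay between -0.05 and 0.01 under these settings. No paired analysis was possible because each group held 1 library. Depth limits Igf2, with 12 control counts, more than the other 9 genes. Transcript length and GC content were known for 99.7% of tested genes.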
